A study of Mus musculus with 11 samples.

Results

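Slc25a24, Klhl23, Itga3, Jcad, Kdelc2, Tspan6, Gprin3, Acvr1, Fmnl2 and Hmgcll1 had more reads in germinal center B cells lacking Crebbp (CBP-KO) and in those lacking Ep300 (p300-KO) than in WT cells, where they were nearly silent. They are 10 of the 48593 genes in the table. The genes were chosen from these same measurements, for low values in the WT libraries and higher values in both sets of knockout libraries, so their differences from WT are given as a description with no test. The choice did not directly use the difference between CBP-KO and p300-KO cells, but it required a rise in both, which can limit that difference. That difference was tested, as were genes related to the 10 or next to them on the chromosome. The lists of related genes were drawn up with earlier results of these data known.

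RNA was sequenced from germinal center B cells (B220+, PNA+, CD95+) sorted from mouse spleens 12 days after intraperitoneal injection of sheep red blood cells, which start a germinal center response. CBP-KO mice (Crebbp fl/fl, Ep300+/+) gave 3 libraries, p300-KO mice (Ep300 fl/fl, Crebbp+/+) gave 3, and WT mice (Crebbp+/+, Ep300+/+) gave 5. All of these mice, the WT mice included, carried 1 Cg1cre allele (Cg1cre/+), in which Cre is expressed from the Ighg1 locus once a B cell is activated, so a flanked gene stays intact in other cells and in B cells that have not switched Cre on. The WT mice are labelled as littermates from crosses of Crebbp heterozygotes, and none is labelled as a littermate of a p300-KO mouse, so breeding and loss of Ep300 cannot be told apart. The labels give no sex, age or batch and number the libraries without saying that each is from its own mouse, so p-values measure the spread between these libraries.

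Libraries held 53550726 to 132861266 reads. The targeted genes were a weak check of the labels, since a gene's total hides a lost exon: Ep300 had 13773 to 14829 normalized counts in p300-KO libraries, against 19310 to 22498 in WT libraries, and Crebbp had 7541 to 8606 in CBP-KO libraries, against 7984 to 9584 in WT libraries, which overlap. Of 8 germinal center B cell markers, all tested, 0 rose and 2 fell in CBP-KO cells and 2 rose and 1 fell in p300-KO cells. Fas, which encodes the sort marker CD95, fell by 0.34 on the log2 scale in CBP-KO cells (adjusted p = 0.0137, lost without CBP-KO_53 or CBP-KO_55) and by 0.33 in p300-KO cells (adjusted p = 0.0118, lost without p300-KO_289). Cd79a, of the B cell receptor, fell by 0.33 in CBP-KO cells (adjusted p = 0.021, lost without CBP-KO_53, CBP-KO_55 or WT_41). Bcl6 had 29307 to 41436 normalized counts in CBP-KO libraries and 37015 to 42399 in p300-KO libraries, against 29529 to 37523 in WT libraries, and S1pr2 had 39902 to 44034 and 42566 to 43107, against 36464 to 41178 in WT libraries. Library p300-KO_18 held both Xist, an RNA of female cells, and Y-linked transcripts, and it and library WT_46 stood apart from others of their group in earlier results. Without both, the log2 differences from WT of the 10 genes were 1.87 to 3.86 in CBP-KO and 1.74 to 3.92 in p300-KO cells, on the log2(value + 1) scale. In these bulk samples more cells with a transcript and more transcript per cell cannot be told apart.

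Crebbp encodes CBP and Ep300 encodes p300, paralogous lysine acetyltransferases that transcription factors recruit to promoters and enhancers, where they acetylate histones and other proteins. Both serve mainly as coactivators. Germinal centers are the sites where activated B cells mutate and select their antibody genes, and CREBBP and EP300 are often mutated in lymphomas that arise from these cells. The 10 genes were not tested for a common pathway. They are known from several settings: endothelial and epithelial adhesion, BMP signalling, the actin cytoskeleton, mitochondrial transport and neurons.

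Together the 10 genes had 730, 1019 and 845 normalized counts in libraries CBP-KO_1, CBP-KO_53 and CBP-KO_55. Their sum averaged 865 ± 145 in CBP-KO cells and 1009 ± 28.5 in p300-KO cells (SD, n = 3 each), against 127 ± 42.6 in WT cells (SD, n = 5). As CPM (reads scaled to library depth), that is 9.56 to 13.2 in CBP-KO libraries and 12.8 to 13.7 in p300-KO libraries, against 1.15 to 2.28 in WT libraries. Every CBP-KO and every p300-KO library was above every WT library for all 10 genes, the pattern they were chosen for; over the 16515 genes tested, 8.43% had every CBP-KO library above every WT library and 9.63% had every p300-KO library above every WT library. On the log2(value + 1) scale the median difference of the 10 genes was 3.01 in CBP-KO against WT and 3.28 in p300-KO against WT, beside medians of 0.01 and -0.01 over all tested genes. Both comparisons share the WT libraries.

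The genes stayed at low levels in the knockouts too. Per kilobase of exon, their mean levels were 2.66 to 53.1 normalized counts in CBP-KO cells and 2.31 to 71.6 in p300-KO cells, against 0.199 to 6.36 in WT cells. The median tested gene had 325 normalized counts per kilobase in WT cells, and none of the 10 reached that level in any group. Gprin3 was the lowest of the 10 per kilobase in all 3 groups, Slc25a24 the highest in CBP-KO cells, and Klhl23 the highest in p300-KO and WT cells. All 10 passed the filter of a mean of at least 10 normalized counts, but Kdelc2, Tspan6, Gprin3 and Acvr1 had WT means below 10 and passed through their values in the knockouts.

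**Figure D1:**
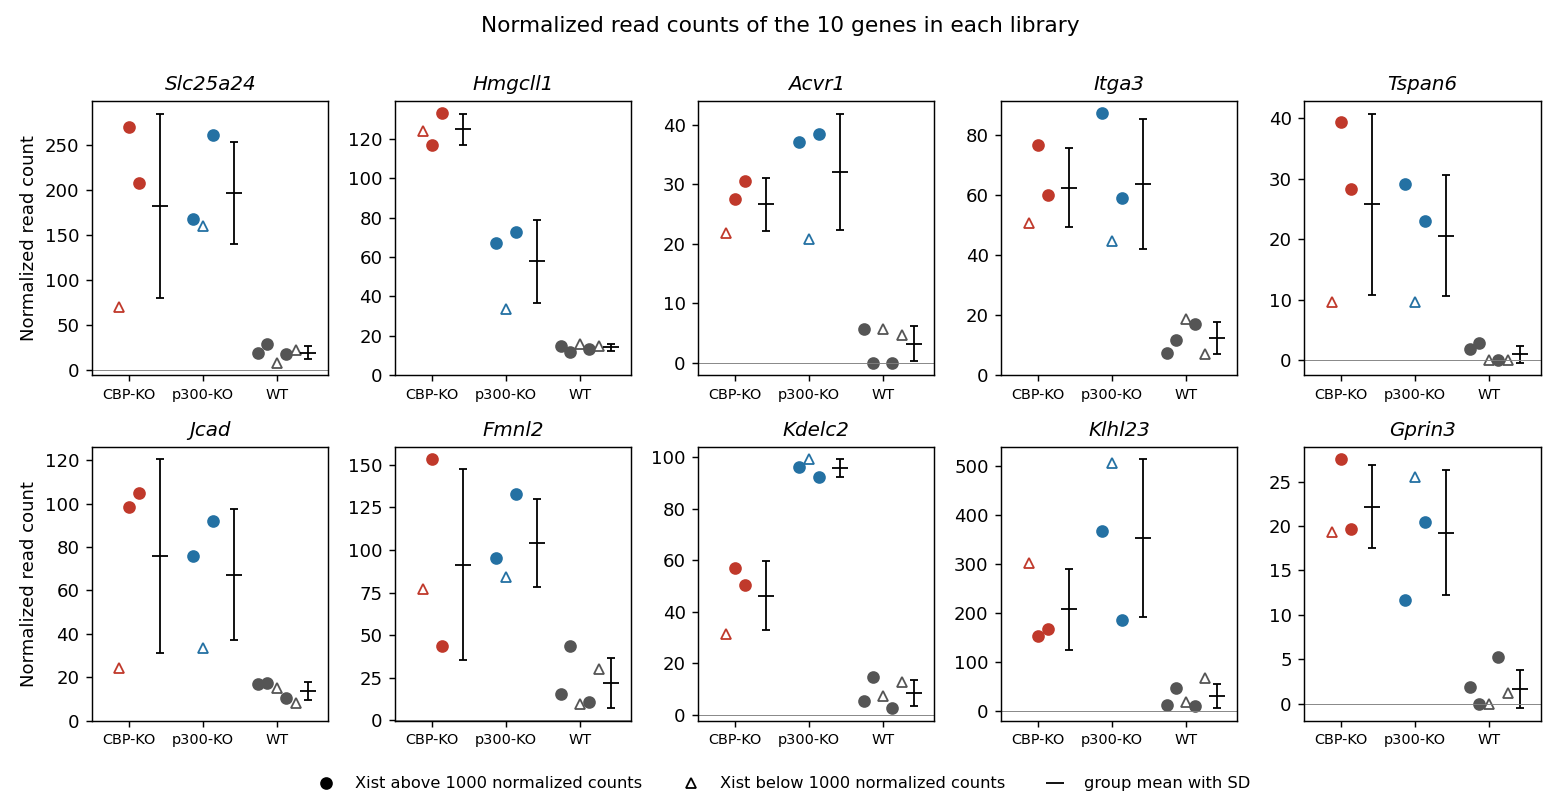
Normalized counts of the 10 genes in each library, with CBP-KO, p300-KO and WT libraries as separate columns of points. A dash with an SD bar beside each column marks the group mean. Filled circles are libraries with high Xist and open triangles those with low Xist; all knockout points lie above all WT points, the pattern the genes were chosen for, by the least for Fmnl2.

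Among the chosen genes, the highest WT mean was that of Klhl23 (31.3 normalized counts). Their smallest differences were those of Fmnl2 in CBP-KO against WT (2.06 on the log2 scale) and Hmgcll1 in p300-KO against WT (1.90). These extremes serve as bounds here but did not by themselves define the choice. Another 8 tested genes met all of them and were not among the chosen genes. Just outside these bounds lay Sept4, a septin, with means of 24.8 in CBP-KO and 18.8 in p300-KO cells against 6.60 in WT cells. Its difference was 1.89 on the log2 scale in p300-KO against WT. Gpx7, a glutathione peroxidase relative, lay just outside with means of 63.0 in CBP-KO and 105 in p300-KO cells against 15.7 in WT cells, 2.04 on the log2 scale in CBP-KO against WT.

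The starts of the genes are of different kinds. Promoter windows, from 250 bases before to 50 bases after an annotated start, were taken from RefSeq (GRCm38.p6) for 8 of the 10 genes, 11 windows in all. These 3 are shown because they include the lowest and the highest share of G and C among the 11 windows. They also include the 1 gene that passed the test between the knockouts. Each is read 5′ to 3′ on the strand of its gene with CG dinucleotides in capitals: Hmgcll1 at chr9:76014727-76015026 (plus strand, 19 CG), Tspan6 at chrX:133898380-133898679 (minus strand, 9 CG) and Acvr1 at chr2:58566779-58567078 (minus strand, 51 CG).
Hmgcll1: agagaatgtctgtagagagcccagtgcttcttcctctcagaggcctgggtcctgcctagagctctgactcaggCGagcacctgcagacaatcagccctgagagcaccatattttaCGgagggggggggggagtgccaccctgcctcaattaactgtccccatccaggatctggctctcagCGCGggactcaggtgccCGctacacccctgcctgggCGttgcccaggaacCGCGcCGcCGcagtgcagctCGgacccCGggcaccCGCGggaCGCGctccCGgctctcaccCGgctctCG
Tspan6: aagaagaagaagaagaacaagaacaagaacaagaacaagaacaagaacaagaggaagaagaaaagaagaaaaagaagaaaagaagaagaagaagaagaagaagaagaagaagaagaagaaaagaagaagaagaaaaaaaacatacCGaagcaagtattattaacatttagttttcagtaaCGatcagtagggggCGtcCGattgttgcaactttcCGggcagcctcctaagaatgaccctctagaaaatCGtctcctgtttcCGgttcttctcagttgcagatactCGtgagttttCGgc
Acvr1: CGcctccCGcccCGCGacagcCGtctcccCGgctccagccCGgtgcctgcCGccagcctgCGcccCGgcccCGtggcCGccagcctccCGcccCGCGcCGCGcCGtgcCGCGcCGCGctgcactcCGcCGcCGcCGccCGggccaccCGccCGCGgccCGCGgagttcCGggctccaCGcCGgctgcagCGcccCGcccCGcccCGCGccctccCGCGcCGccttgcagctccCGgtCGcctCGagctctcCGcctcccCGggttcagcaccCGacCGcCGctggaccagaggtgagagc

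The Acvr1 window is 83.7% G and C, the Hmgcll1 window 65.7%, and the Tspan6 window, which opens with a long run of repeats rich in A and G, 38.3%. The 11 windows held 4 (in a Klhl23 window) to 51 CG dinucleotides. Their medians were 19 CG dinucleotides and 66.7% G and C, beside 20 and 60.3% over 12907 windows of tested genes and 7 and 52.7% over all 32851 windows. Both strands were searched for 4 motifs. The cyclic AMP response element TGACGTCA, bound by CREB, the factor for which CBP is named, was in 0 of 11 windows, and in 3.04% of windows of tested genes and 1.79% of all windows. Its part TGACG, which that element also contains, was in 0 of 11 windows, and in 30.3% and 20.8%. The AP-1 motif TGANTCA was in 2 windows, that of Hmgcll1, starting 186 bases before the start, and 1 of the Itga3 windows, and in 4.93% and 7.81% of the larger sets. TATAAA was in 1 window, of Klhl23, on the strand opposite to the gene, and in 7.43% and 13.6%. These are matches of letters only and do not show binding.

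Among genes of metabolism, Slc25a24 encodes a mitochondrial carrier that exchanges ATP-Mg for phosphate under control of calcium (chr3:109123149-109168457, plus strand, mm10). It had 70.0, 269.5 and 207.4 normalized counts in libraries CBP-KO_1, CBP-KO_53 and CBP-KO_55, and 167.3, 159.8 and 261.0 in libraries p300-KO_18, p300-KO_287 and p300-KO_289. In WT libraries WT_4, WT_7, WT_41, WT_46 and WT_288, it had 18.6, 29.1, 8.43, 18.4 and 22.2. Library CBP-KO_1 was the lowest knockout library and still above the highest WT library. The ratio of means to WT was 9.43 in CBP-KO cells and 10.1 in p300-KO cells, or 3.06 and 3.34 on the log2(value + 1) scale. Between the knockouts the log2 difference was -0.28 (95% interval -1.34 to 0.79, limma adjusted p = 0.779), CBP-KO minus p300-KO as in all such differences here.

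Hmgcll1 encodes an enzyme of ketone body synthesis that lies outside mitochondria (chr9:76014855-76136350, plus strand). It had 124.3, 117.1 and 133.2 normalized counts in the CBP-KO libraries, in the same library order, and 66.9, 33.6 and 72.9 in the p300-KO libraries. WT libraries had 14.9, 11.6, 15.9, 13.1 and 14.6. The 3 groups formed steps with no overlap, and CBP-KO libraries and WT libraries were each close to one another. The means were 125 ± 8.09 in CBP-KO cells and 57.8 ± 21.2 in p300-KO cells (SD, n = 3 each), against 14.0 ± 1.67 in WT cells (SD, n = 5), log2 differences from WT of 3.07 and 1.90.

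Hmgcll1 was the 1 of 10 genes that passed the test between the knockouts: it was higher in CBP-KO than in p300-KO cells by 1.17 ± 0.31 (SE) on the log2 scale (95% interval 0.50 to 1.84, limma adjusted p = 0.0332 over all tested genes), a ratio of means of 2.16. Over all tested genes 9.42% passed this test (4.79% higher and 4.63% lower in CBP-KO than in p300-KO cells), so 1 of 10 is close to the background. The call was lost without CBP-KO_1, CBP-KO_53, CBP-KO_55, p300-KO_18 or p300-KO_287, when the adjusted p was 0.0739, 0.0858, 0.112, 0.0547 or 0.111, while the difference stayed at 0.83 to 1.37. It was also lost with no filter on low values (adjusted p = 0.0772).

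Acvr1 encodes ALK2, a type I receptor for BMPs that phosphorylates SMAD proteins (chr2:58388644-58567157, minus strand). It had 21.7, 27.5 and 30.6 normalized counts in the CBP-KO libraries and 37.1, 20.8 and 38.4 in the p300-KO libraries. In the WT libraries it had 5.57, 0, 5.62, 0 and 4.68, so 2 of 5 WT libraries had no read. Log2 differences from WT were 3.18 in CBP-KO and 3.41 in p300-KO cells, and 1.67 and 1.85 with a pseudocount of 8. The knockout libraries overlapped one another (log2 difference -0.22, 95% interval -1.92 to 1.47, adjusted p = 0.893).

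Of the adhesion and membrane genes, Itga3 encodes the alpha3 integrin chain, which pairs with the beta1 chain and binds laminins (chr11:95044474-95076801, minus strand). It had 50.7, 76.7 and 60.0 normalized counts in the CBP-KO libraries and 87.3, 44.7 and 58.9 in the p300-KO libraries. The 5 WT libraries had 7.43, 11.6, 18.7, 17.1 and 7.03. Both knockouts were about equal in the mean, 62.5 ± 13.2 in CBP-KO and 63.6 ± 21.7 in p300-KO cells (SD, n = 3 each), against 12.4 ± 5.39 in WT cells (SD, n = 5), which is 2.32 above WT on the log2 scale in both. The difference between the knockouts was 0.01 (95% interval -0.89 to 0.90, adjusted p = 0.996).

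Tspan6 encodes a tetraspanin, one of a family of membrane proteins that organise integrins and other receptors (chrX:133891068-133898429, minus strand). It was nearest to silent in WT cells, with 4 reads over all 5 WT libraries, against 74 in the CBP-KO and 70 in the p300-KO libraries. In normalized counts it had 9.65, 39.3 and 28.4 in the CBP-KO libraries and 29.1, 9.59 and 23.0 in the p300-KO libraries, against 1.86, 2.91, 0, 0 and 0 in the WT libraries. Its fold change depended on how values near 0 were treated: in CBP-KO against WT it was 3.85 on the log2(value + 1) scale, 4.86 in edgeR and 1.81 with a pseudocount of 8. Between the knockouts the log2 difference was 0.24 (95% interval -1.38 to 1.86, adjusted p = 0.880).

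Jcad encodes a protein of endothelial cell junctions that also acts on the Hippo pathway (chr18:4634878-4682869, plus strand). It had 24.1, 98.4 and 104.8 normalized counts in the CBP-KO libraries and 75.7, 33.6 and 92.1 in the p300-KO libraries. The 5 WT libraries had 16.7, 17.4, 15.0, 10.5 and 8.20. One library in each knockout, CBP-KO_1 and p300-KO_287, lay well below the others and nearer to WT. Log2 differences from WT were 2.19 in CBP-KO and 2.16 in p300-KO cells, and the one in CBP-KO cells was 1.83 to 2.86 when each library was left out. The log2 difference between the knockouts was 0.03 (95% interval -1.16 to 1.23, adjusted p = 0.981).

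Fmnl2 encodes a formin, which builds actin filaments at the cell edge downstream of Cdc42 (chr2:52857860-53133804, plus strand). It had 77.2, 153.4 and 43.7 normalized counts in the CBP-KO libraries and 95.3, 83.9 and 133.1 in the p300-KO libraries. In the WT libraries it had 15.8, 43.6, 9.37, 10.5 and 30.4. CBP-KO_55 and WT_7 all but touched, at 43.67 and 43.62 normalized counts from 40 and 30 reads. The log2 difference from WT was 2.06 in CBP-KO and 2.40 in p300-KO cells, and the one in CBP-KO cells was 1.60 at the lowest and 2.50 at the highest when each library was left out. Between the knockouts it was -0.34 (95% interval -1.56 to 0.88, adjusted p = 0.760).

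Of the genes that act on other proteins, Kdelc2, also named Poglut3, encodes a glucosyltransferase of the endoplasmic reticulum that adds glucose to EGF repeats, among them those of Notch (chr9:53384025-53401867, plus strand). It had 31.4, 57.1 and 50.2 normalized counts in the CBP-KO libraries and 96.0, 99.1 and 92.1 in the p300-KO libraries. In the WT libraries it had 5.57, 14.5, 7.49, 2.63 and 12.9. Against WT, the log2 difference was 2.44 in CBP-KO and 3.51 in p300-KO cells. The p300-KO libraries were alike and all above the CBP-KO libraries, but the difference did not pass the test (log2 -1.08, 95% interval -2.14 to -0.01, adjusted p = 0.194). It passed when the 6 knockout libraries were fitted alone (adjusted p = 0.0447). Kdelc2 and Hmgcll1 were the 2 of 10 genes whose CBP-KO and p300-KO libraries did not overlap, beside 31% of tested genes.

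Klhl23 encodes a BTB-kelch protein, of a family many of whose members bring proteins to the cullin 3 ubiquitin ligase (chr2:69821944-69836651, plus strand). It had 301.7, 152.5 and 167.0 normalized counts in the CBP-KO libraries and 366.7, 505.8 and 185.5 in the p300-KO libraries. WT libraries had 13.0, 46.5, 18.7, 10.5 and 67.9. It had the highest p300-KO mean of the 10 genes, 353 ± 161 (SD, n = 3), and the widest WT spread, 31.3 ± 25.0 (SD, n = 5). Against WT, the log2 difference was 2.97 in CBP-KO and 3.69 in p300-KO cells. The log2 difference between the knockouts was -0.72 (95% interval -2.06 to 0.62, adjusted p = 0.518).

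Gprin3 encodes a G protein regulated inducer of neurite outgrowth (chr6:59347226-59426294, minus strand). It had 19.3, 27.5 and 19.7 normalized counts in the CBP-KO libraries and 11.6, 25.6 and 20.5 in the p300-KO libraries. In the WT libraries it had 1.86, 0, 0, 5.25 and 1.17. WT_46 was the highest WT library, and without it and p300-KO_18 the log2 difference was 3.86 in CBP-KO against WT and 3.92 in p300-KO against WT, beside 3.46 and 3.22 with all libraries. Between the knockouts it was 0.24 (95% interval -1.25 to 1.74, adjusted p = 0.869).

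Across the 10 genes, 5 had a higher fitted value in CBP-KO and 5 in p300-KO cells, and the median log2 difference was -0.11, beside 0.00 over all tested genes. The intervals of 9 genes other than Hmgcll1 were wide, from 1.79 log2 units across for Itga3 to 3.39 across for Acvr1, and the absence of a call does not show that these genes had the same level in both knockouts.

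**Figure D2:**
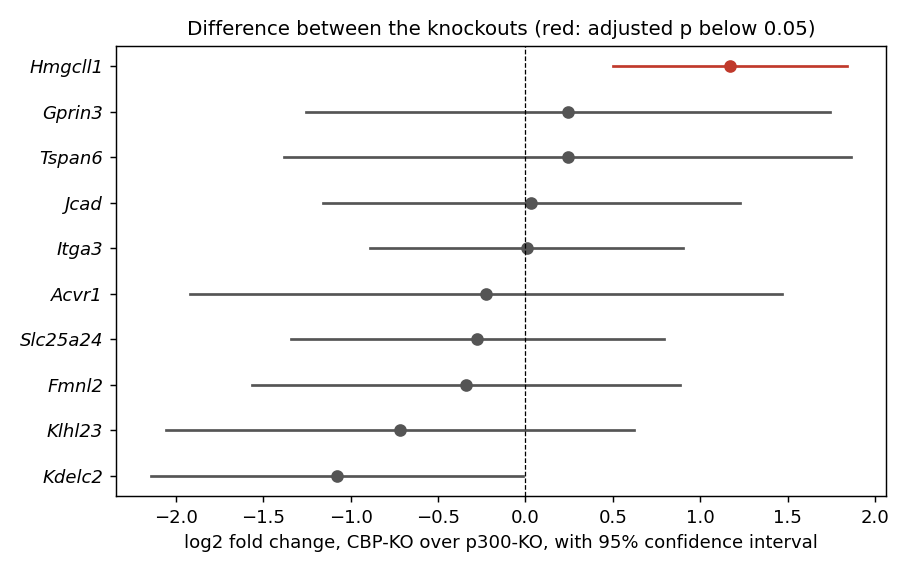
Log2 difference between CBP-KO and p300-KO cells on the log2(value + 1) scale for each of the 10 genes, with bars for the 95% interval of the fit over all 11 libraries; red marks an adjusted p below 0.05. Only Hmgcll1, at 1.17, is red, and the Kdelc2 interval ends just below 0.

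**Figure D3:**
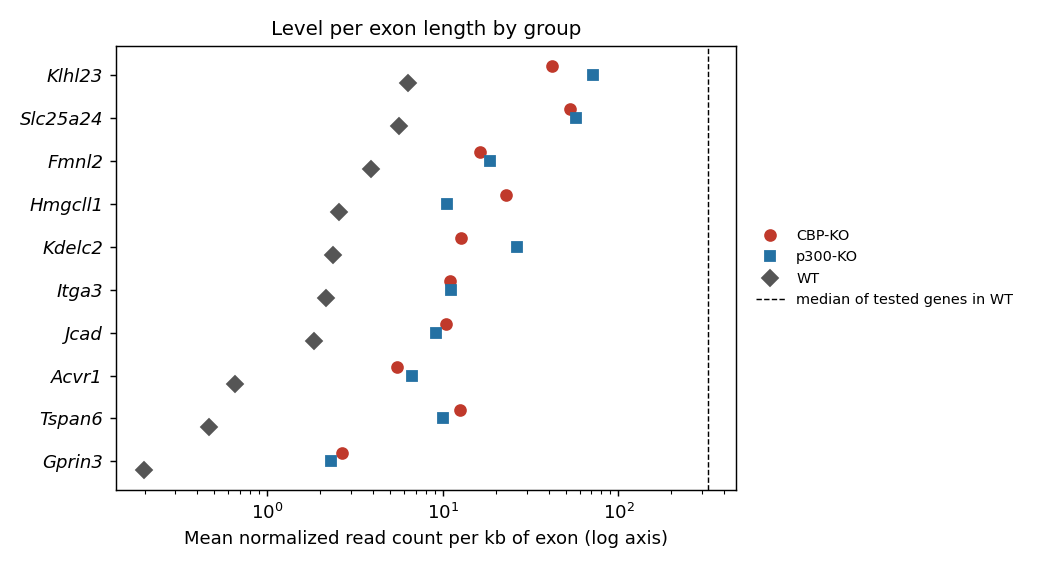
Mean normalized counts per kilobase of exon (log axis) of the 10 genes in CBP-KO, p300-KO and WT cells, with a dashed line at the median of the tested genes in WT cells, 325. All 30 means lie below the line.

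The spread within a knockout was not the same for all genes. The highest library was 1.14 to 4.34 times the lowest in CBP-KO cells and 1.08 to 3.04 times in p300-KO cells. CBP-KO_1 was the lowest of its group for 7 of the 10 genes and p300-KO_287 the lowest of its group for 7, and 5 genes (Slc25a24, Itga3, Jcad, Tspan6 and Acvr1) were lowest in both. Klhl23 had its highest value of each knockout in those same libraries. CBP-KO_1 and p300-KO_287 are, with WT_41 and WT_288, the 4 libraries with low Xist, under 1000 normalized counts, and the other 7 had high Xist. With Xist level as a covariate, added after seeing the data, 0 of the 10 genes passed limma's test of high against low Xist. Over all tested genes 0.103% passed (0.085% without p300-KO_18). An unadjusted p under 0.05 was found for 4 of the 10. The share of all tested genes under that p was not computed, so this count cannot be weighed. Jcad had a log2 difference of 1.04 (adjusted p = 0.343), Tspan6 1.35 (0.376), Slc25a24 0.85 (0.394) and Klhl23 -0.92 (0.440), high minus low. With that covariate the differences from WT of the 10 genes were 2.05 to 3.76 in CBP-KO and 1.89 to 3.75 in p300-KO cells.

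Genes whose profile was most like that of the 10 were found by Pearson correlation, over the 11 libraries, with the mean of the 10 standardized profiles. The 5 closest were Cbr1, a carbonyl reductase (0.98), Ppm1e, a protein phosphatase (0.97), Acad8, an enzyme of valine breakdown (0.97), Scmh1, a Polycomb protein (0.96), and Pip4p2, a phosphoinositide phosphatase (0.96). They were not near-silent. Ppm1e averaged 1055 normalized counts in CBP-KO and 868 in p300-KO cells, against 284 in WT cells, and Scmh1 averaged 2441 and 2160, against 1359 in WT cells. The 10 genes themselves correlated with their own mean at 0.88 to 0.97. The points share the same 3 groups, so these values describe the difference between knockouts and WT and carry no p.

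Most genes next to the 10 on the chromosome were silent or passed no test. Of 21 nearest or overlapping protein-coding genes, 9 were expressed enough to test. In CBP-KO against WT, limma called 0 of 9, beside 8.36% of all tested genes, and their median log2 difference was 0.09; 3 (Vav3, Phospho2 and Svil) had an unadjusted p under 0.05, edgeR called 0 and DESeq2 called 1, Svil. In p300-KO against WT it called 1 of 9, beside 11.9%, with a median of 0.08. Stam2, a gene of endosomal sorting next to Fmnl2, had log2 differences of 0.10 in CBP-KO and 0.02 in p300-KO cells, and passed neither test. Phospho2 and Ssb, on either side of Klhl23, had log2 differences of 0.17 and 0.07 in CBP-KO against WT and 0.08 and 0.08 in p300-KO against WT. Pdk2, a kinase of pyruvate dehydrogenase 3120 bases from Itga3, averaged 13.4 in CBP-KO and 45.9 in p300-KO cells, against 28.9 in WT cells, and passed neither test.

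The 1 neighbour that passed was Svil, which encodes the actin-binding protein supervillin, 237671 bases from Jcad. Svil averaged 117 normalized counts in CBP-KO and 145 in p300-KO cells, against 53.5 in WT cells. It was higher by 1.50 on the log2 scale in p300-KO than in WT cells (adjusted p = 0.0238) and by 1.11 in CBP-KO than in WT cells, which did not pass (adjusted p = 0.0979). The p300-KO call was lost without p300-KO_18 (adjusted p = 0.092) or p300-KO_289 (adjusted p = 0.0868). Mir130c overlaps Kdelc2 exons and Gm26903 overlaps Hmgcll1 exons on the other strand; the library kit did not keep strand, so reads of such partners cannot be told apart from those of the gene.

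**Figure D4:**
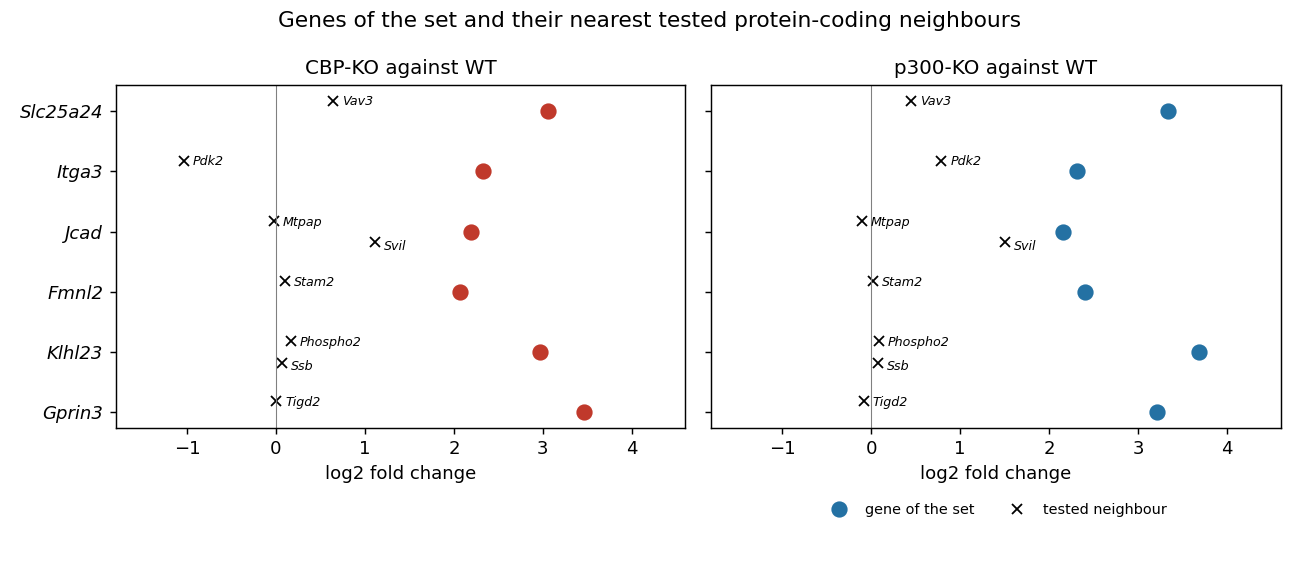
Log2 difference from WT on the log2(value + 1) scale of 6 of the 10 genes (filled circles) and of 8 of their tested neighbours (crosses), in CBP-KO and in p300-KO cells. The 6 genes lie at 2.06 or above, which their choice favoured, and the neighbours shown lie at 1.50 or below.

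Relatives of the 10 genes, in 10 lists of paralogs and pathway partners, showed whether a family moved with its member. Of 155 tested relatives, limma called 10 higher and 15 lower in CBP-KO against WT (16.1%, beside 8.36% of all tested genes, 3.48% higher and 4.88% lower), with a median log2 difference of 0.06. In p300-KO against WT it called 12 higher and 10 lower (14.2%, beside 11.9%, 5.84% higher and 6.09% lower), with a median of 0.02. Between the knockouts 9 were higher and 7 lower in CBP-KO than in p300-KO cells (10.3%, beside 9.42%).

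Of 11 tested mitochondrial carriers and calcium uptake genes, 1 rose and 2 fell in CBP-KO cells and 1 rose and 1 fell in p300-KO cells. Slc25a23, another ATP-Mg carrier, averaged 461 ± 116 normalized counts in CBP-KO and 1257 ± 67.4 in p300-KO cells (SD, n = 3 each), against 448 ± 119 in WT cells (SD, n = 5). It rose by 1.54 on the log2 scale in p300-KO cells (adjusted p = 0.00123), with 0.06 in CBP-KO cells (adjusted p = 0.917), and differed between the knockouts (-1.48, adjusted p = 0.00383). Slc25a25, another such carrier, fell by 0.30 in CBP-KO cells (adjusted p = 0.00942). Slc25a41 was too low to test.

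Of 10 tested ketone body and HMG-CoA enzymes, 1 rose in each knockout and 0 fell. Bdh1, which converts the ketone bodies into each other, rose by 0.60 in CBP-KO cells (adjusted p = 0.013), a call lost without CBP-KO_53 or CBP-KO_55. Acat1 rose by 0.26 in p300-KO cells (adjusted p = 0.0437), a call lost without any one of 9 libraries.

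Of 23 tested BMP, activin and TGF-beta receptors and SMADs, 2 rose and 1 fell in CBP-KO cells and 1 rose and 1 fell in p300-KO cells. Acvrl1, which encodes ALK1 and is the closest paralog of Acvr1, averaged 12.1 ± 3.21 normalized counts in CBP-KO and 28.7 ± 4.31 in p300-KO cells, against 52.4 ± 20.7 in WT cells. It fell by 1.96 on the log2 scale in CBP-KO cells (adjusted p = 0.00428), the opposite direction to the Acvr1 values, and its -0.77 in p300-KO cells did not pass (adjusted p = 0.181). Smad3, a mediator of TGF-beta signals, rose by 1.12 in CBP-KO cells (adjusted p = 0.00895), a call lost without CBP-KO_53. Id3, a target of BMP signalling, fell by 0.84 in p300-KO cells (adjusted p = 0.000672). Its log2 difference in CBP-KO cells was -0.13 (adjusted p = 0.558).

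Of 13 tested beta1 integrins and laminin-binding partners, 1 rose and 3 fell in CBP-KO cells and 1 rose and 2 fell in p300-KO cells. Itga6, the laminin-binding paralog of Itga3, averaged 1431 ± 109 in CBP-KO and 1094 ± 33.1 in p300-KO cells, against 1859 ± 242 in WT cells. It fell by 0.75 on the log2 scale in p300-KO cells (adjusted p = 0.000711), and its fall of 0.37 in CBP-KO cells (adjusted p = 0.0449) was lost without any one of 9 libraries. Itga7, another laminin-binding chain, was too low to test. Of 18 tested tetraspanins, 0 rose and 5 fell in CBP-KO cells and 2 rose and 2 fell in p300-KO cells. Tspan31 rose by 1.18 in p300-KO cells (adjusted p = 5.74e-06) and Tspan32 fell by 0.96 in CBP-KO cells (adjusted p = 0.000738). Tspan7, the nearest paralog of Tspan6, was too low to test in any group.

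Of 16 tested endothelial junction and Hippo genes, 1 rose and 1 fell in CBP-KO cells and 2 rose and 0 fell in p300-KO cells. Ctnnd1, which encodes the cadherin-binding p120 catenin, averaged 235 ± 78.2 normalized counts in CBP-KO and 229 ± 34.2 in p300-KO cells, against 72.2 ± 22.6 in WT cells. It rose by 1.69 in CBP-KO and 1.70 in p300-KO cells on the log2 scale (adjusted p = 0.00252 and 0.00177). Cdh5, the cadherin of endothelial cells, averaged 57.0 ± 3.53 in CBP-KO and 80.9 ± 6.15 in p300-KO cells, against 105 ± 13.6 in WT cells, and fell by 0.87 in CBP-KO cells (adjusted p = 0.00895). Nf2, an activator of the Hippo kinases, rose by 0.43 in p300-KO cells (adjusted p = 0.00172).

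Of 15 tested formins, 1 rose and 1 fell in CBP-KO cells, and limma called 0 in p300-KO cells, where 2 had an unadjusted p under 0.05 and edgeR and DESeq2 called 0. The close paralogs of Fmnl2 are abundant in these cells: Fmnl1 averaged 22365 in CBP-KO and 26961 in p300-KO cells, against 23910 in WT cells, and Fmnl3 averaged 13598 and 15977, against 16279 in WT cells. None of these differences passed. Fmn2, a formin best known from oocytes, averaged 685 ± 93.8 in CBP-KO and 314 ± 110 in p300-KO cells, against 206 ± 74.5 in WT cells, and rose by 1.83 on the log2 scale in CBP-KO cells (adjusted p = 0.00613).

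Of 24 tested BTB-kelch genes and cullin 3, 1 rose and 1 fell in CBP-KO cells and 2 rose and 1 fell in p300-KO cells. Klhl7 rose by 0.89 in CBP-KO and 0.91 in p300-KO cells on the log2 scale (adjusted p = 0.0022 and 0.00139), with means of 647 and 655 against 354 in WT cells. Klhl6, a B cell member of the family needed for germinal centers in mice, fell by 0.82 in p300-KO cells (adjusted p = 0.00293), and its fall of 0.59 in CBP-KO cells (adjusted p = 0.0213) was lost without CBP-KO_53 or CBP-KO_55. Of 17 tested genes of Notch EGF-repeat glycosylation, 2 rose and 0 fell in each knockout. Eogt, which adds GlcNAc to EGF repeats, rose by 0.43 in CBP-KO and 0.40 in p300-KO cells (adjusted p = 0.00124 and 0.00143). Kdelc1, the paralog of Kdelc2, averaged 238 in CBP-KO and 308 in p300-KO cells, against 171 in WT cells, and did not pass (adjusted p = 0.364 and 0.0635).

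Of 9 tested G protein partners of the Gprin proteins, 0 rose and 1 fell in CBP-KO cells and 0 rose and 3 fell in p300-KO cells. Gna13, a G protein that confines B cells to germinal centers, fell by 0.28 on the log2 scale in p300-KO cells (adjusted p = 0.00215). The paralog Gprin1 was too low to test, and Gprin2 averaged 27.3 in CBP-KO and 21.04 in p300-KO cells, against 12.2 in WT cells, and did not pass.

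Several of the 10 genes are used in endothelial or epithelial cells, so markers of such cells are given. The summed endothelial markers had 2873 to 3018 normalized counts in CBP-KO libraries and 4500 to 4998 in p300-KO libraries, against 3354 to 4255 in WT libraries, so they lay below WT in one knockout and above it in the other. Of 5 listed, 2 were tested; both fell in CBP-KO cells, and Pecam1 rose in p300-KO cells, a call lost without any one of 6 libraries. Nearly all of the sum was Pecam1; of the other 4, Tie1 was at 0 in all 11 libraries and Kdr at 0 in all 6 knockout libraries, Cdh5 was present in all 3 groups at the levels given above, and Esam averaged 8.53 in CBP-KO and 5.71 in p300-KO cells, against 7.95 in WT cells. The summed epithelial markers had 130 to 189 in CBP-KO and 202 to 239 in p300-KO libraries, against 93.1 to 165 in WT libraries. Of 4 listed, 3 were tested and 1 passed: Cdh1, the cadherin of epithelial cells, which averaged 53.4 ± 11.2 in CBP-KO and 62.4 ± 21.3 in p300-KO cells, against 16.1 ± 8.29 in WT cells. It rose by 1.86 and 2.03 on the log2 scale (adjusted p = 0.0347 and 0.0183), calls lost without any one of the CBP-KO libraries, or without p300-KO_287 or p300-KO_289. The part of these cell types in the results was not tested.

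The summed stromal markers had 12060 to 19489 in CBP-KO and 10499 to 15401 in p300-KO libraries, against 13567 to 23754 in WT libraries, with only Cr2 of 7 listed high enough to test and its values not passing. Cr2, which B cells also express, made nearly all of the sum, and Col1a2, Pdpn and Ccl19 were at 0. The summed macrophage markers had 1455 to 2180 in CBP-KO and 1633 to 2279 in p300-KO libraries, against 2731 to 8177 in WT libraries; of 6 tested, 3 (Mpeg1, Adgre1 and C1qb) fell in CBP-KO and 1 (Mpeg1) in p300-KO cells. Each of these calls was lost without 1 library: Mpeg1 without CBP-KO_53, or in p300-KO cells without p300-KO_289, Adgre1 without CBP-KO_53 or CBP-KO_55, and C1qb without CBP-KO_1 or CBP-KO_55. The T cell markers summed to 126 to 171 in CBP-KO and 180 to 200 in p300-KO libraries, against 209 to 280 in WT libraries, and the dendritic cell markers to 2928 to 3437 and 2618 to 2750, against 4279 to 5707 in WT libraries. These 3 sums were below WT in both knockouts. In each, 1 gene made most of the sum: Mpeg1, Lat and Flt3, with WT means of 3561, 207 and 4651. Not every marker went that way. Adgre1 averaged 64.6 and Zbtb46 74.1 in p300-KO cells, against 57.4 and 47.6 in WT cells, while in CBP-KO cells they averaged 16.7 and 27.5. The part of these cells in the results was not tested. The plasma cell markers summed to 14979 to 15261 in CBP-KO and 20614 to 23774 in p300-KO libraries, against 15511 to 18235 in WT libraries. Most of the sum was Xbp1, which rose by 0.48 on the log2 scale in p300-KO cells (adjusted p = 0.000231). Sdc1 averaged 186 in CBP-KO and 344 in p300-KO cells, against 115 in WT cells. It rose by 1.60 in p300-KO cells (adjusted p = 0.000886), and its 0.74 in CBP-KO cells did not pass (adjusted p = 0.0646). Irf4 fell by 0.73 in CBP-KO cells (adjusted p = 0.0029), and Prdm1 passed in neither knockout. Erythroid markers had 209 to 492 in CBP-KO and 83.2 to 213 in p300-KO libraries, against 265 to 530 in WT libraries. They overlapped WT in CBP-KO libraries and lay below WT in p300-KO libraries. Hbb-bt fell by 2.29 on the log2 scale in p300-KO cells (adjusted p = 0.000799), while Alas2 and Hba-a1 had higher means than in WT cells and did not pass. Platelet markers (28.4 to 107 and 24.3 to 70.3, against 34.3 to 127 in WT libraries) overlapped WT in both knockouts. No neutrophil marker reached the filter.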

How the data were processed

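Germinal center B cells from mouse spleen were analysed in 11 labelled libraries (CBP-KO 3, p300-KO 3, WT 5). The deposited values are a normalized signal: reads per gene, scaled by the authors with 1 DESeq2 size factor for each library. The submitters' processing notes name CASAVA 1.8, HISAT2, featureCounts, DESeq2 and mm10; settings are not given in the sources used here. Per the labels, unstranded TruSeq RNA libraries were made. Whole reads were recovered for 100% of values (tolerance 1e-06), giving 53550726 to 132861266 reads per library, and the size factors computed from them matched those deposited.

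The table has 48593 genes, of which 22043 had no read. Genes averaging 10 or more (16515) entered limma 3.58.1 (R 4.3.3) on log2(value + 1), with a variance trend over mean level and 1 fit for the 11 libraries with group means as its only terms. Tests were two-sided at a Benjamini-Hochberg adjusted p of 0.05, and were tested on simulated counts first. Adjusted p values are from limma unless another tool is named, and mean ± SD is of normalized counts.

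The 10 genes and all lists were chosen with earlier results of these data known. The naming rule took the 10 genes, Crebbp, Ep300, paralogs, up to 4 called genes of each list with the smallest p, the nearest protein-coding neighbours and the 5 most correlated genes; some of these are not reported here. Gene positions and exon lengths are from GENCODE M21. Alternatives changed the pseudocount, filter, normalization, tool (edgeR 4.0.16, DESeq2 1.42.0), library weights, groups fitted and libraries kept; 2 with Xist level as a covariate were added after seeing the data.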

Additional observations from a re-analysis of the deposited data

Results flagged for a closer look

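Hmgcll1 passed the test between the knockouts, as did 9.42% of all tested genes. Its effect in CBP-KO cells exceeded that in p300-KO cells by 1.17 on the log2 scale. This was tested as the direct difference between the knockouts (limma adjusted p = 0.0332). Every CBP-KO library was above every p300-KO library, as for 15.5% of tested genes. The adjusted p ranged from 0.0297 to 0.112 when 1 library was left out. The call was lost without CBP-KO_1, CBP-KO_53, CBP-KO_55, p300-KO_18 or p300-KO_287.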

How the results depend on the processing

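All 465 alternative values of the 10 genes against WT were above 0, from 1.49 to 4.996 on the log2 scale; since the genes were chosen for this, that is no sign of stability. Genes called between CBP-KO and p300-KO (1556) numbered 2350 in DESeq2, 2808 with library weights, 921 with Xist level as a covariate without p300-KO_18, and 747 to 1958 when each library was left out. Genes called in CBP-KO against WT (1380) numbered 2730 with library weights and 647 to 1544 when each library was left out; in p300-KO against WT (1970), 1169 to 2035. Of the 10 genes, 1 was called between the knockouts, 0 with no filter or with Xist level as a covariate without p300-KO_18, 2 when the knockouts were fitted alone, and 0 to 1 when each library was left out. Hmgcll1 had an adjusted p of 0.0255 in edgeR and 0.00905 in DESeq2. Differences between the knockouts near 0 changed sign: Slc25a24 was 0.079 with library weights; Itga3 was -0.0061 with TMM scaling, -0.028 in edgeR and -0.028 in DESeq2; Gprin3 was -0.062 without WT_46 and p300-KO_18 and -0.13 with the Xist covariate without p300-KO_18. When each library was left out, these differences ranged from -0.66 to 0.31 for Slc25a24, -0.22 to 0.26 for Itga3, -0.40 to 0.71 for Jcad, -0.21 to 0.80 for Tspan6, -0.062 to 0.47 for Gprin3 and -0.80 to 0.092 for Fmnl2. The cause was not tested. No paired analysis was possible because no replicate number occurs in more than 1 group. Depth limits the 10 genes: of their 103 nonzero read counts, 87 were even, as were 76.1% to 79.1% of counts of 1 to 20 reads per library. Where mates of a pair are counted apart, a fragment gives 2 reads; whether this was done is not given in the sources used here.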

Other observations

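The 10 genes span bounds of a WT mean of at most 31.3 normalized counts and their smallest differences from WT in both knockouts. Of 2324 tested genes at or below that WT mean, 18 met both differences, the 10 included. The other 8 were picked after their values were seen and are given with no test. Of these 8, only Tfpi had a WT mean above 10. The filter took the mean over all 11 libraries, so the others, like 4 of the 10 genes, passed it through their knockout values. The 18 of 2324 is therefore no measure of how rare the pattern is. Tfpi, an inhibitor of blood coagulation, averaged 71.4 normalized counts in CBP-KO and 65.4 in p300-KO cells, against 19.4 in WT cells. Abcg2, a drug efflux transporter, averaged 33.7 in CBP-KO and 38.7 in p300-KO cells, against 9.16 in WT cells. Gsta4, a glutathione transferase, averaged 18.7 in CBP-KO and 17.1 in p300-KO cells, against 3.76 in WT cells. Igkv3-9, a segment of the kappa light chain, averaged 56.5 in CBP-KO and 60.2 in p300-KO cells, against 9.43 in WT cells. Serp2, Slc35e4, Igsf9b and Cldn34c1 averaged 17.3 to 28.4 in CBP-KO and 17.2 to 24.4 in p300-KO cells, against 4.45 to 5.07 in WT cells.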
